A study of Homo sapiens with 10 samples.

Results

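Surface proteins carried by human pluripotent stem cells, other than the sort antigens EPCAM and CD9, were followed at the RNA level in a sorted and an unsorted population of an embryonic stem cell line. The set was a list of gene names, drawn up when earlier results of these data were known: PODXL, THY1, PROM1, ALPL, CD24, CD47, BST2, DPP4, F3 and ALCAM. Of these 10 genes, 9 had a row among the 55841 Ensembl identifiers of the count table, and all 9 passed the filter on low counts. RNA was sequenced from 10 libraries of the line that the labels call HES9, grown in mTESR1 medium on matrigel without feeder cells. The 5 libraries named general came from the whole, nonsorted culture. The 5 libraries named HHH came from the cells sorted for the highest EPCAM, GCTM2 and CD9. Batch 1 held 2 general and 2 HHH libraries and batch 2 held 3 of each. No label names a genetic change or a treatment in either population. The design text speaks of a protein kinase C inhibitor, the study's text names the cells WA09 and the labels HES9, and neither point could be settled here.

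Several limits apply to every value below. The general population was not depleted of HHH cells, and it was not passed through the sorter, so sorting itself and the level of the 3 antigens cannot be told apart. All libraries are from 1 cell line, and nothing states that they came from separate cultures, so p-values measure only the spread between these libraries, which may be technical. In bulk RNA, fewer cells with a transcript and less of it per cell cannot be told apart. Total counts ran from 47242595 to 78503395 per library. Levels are given in counts scaled to a common library size (CPM) with TMM factors, on which 3 counts, the floor used here, stood for 0.0460 to 0.0687 CPM for counting error only. The lowest count of any of the 9 genes was 81, for DPP4.

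Stem cell surface markers do different work. Podocalyxin (PODXL) is a heavily glycosylated, negatively charged sialomucin related to CD34, and the TRA-1-60 type epitopes used to recognise human pluripotent cells are keratan sulphate-related glycans that it carries. THY1 (CD90), the tissue-nonspecific alkaline phosphatase ALPL and CD24 are held in the outer membrane by a glycosylphosphatidylinositol (GPI) anchor, whereas PROM1 (CD133), CD47, DPP4 (CD26), tissue factor (F3) and ALCAM (CD166) span the membrane. Because antibodies to these molecules see protein or sugar, the RNA counted here is one layer below what a cytometer would read.

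The cells carried the RNA of pluripotent cells in both populations. POU5F1, a core pluripotency factor, had 516 ± 30.9 CPM (SD, n = 5) in the general libraries and 570 ± 72.6 CPM (n = 5) in HHH. Of the antigens of the sort, EPCAM had 148 ± 37.2 CPM in the general libraries and 196 ± 42.0 CPM in HHH, a log2 fold change of 0.41 (SE 0.081) with an adjusted p of 0.00645. CD9 had 71.3 ± 23.2 and 84.1 ± 10.6 CPM, a log2 fold change of 0.29 (SE 0.12) with an adjusted p of 0.195, and it was -0.10 in batch 1 and 0.54 in batch 2. No gene was read for GCTM2, the other antigen of the sort. Whether any gene named here carries or builds that antigen was not tested. Here and below, fold changes compare HHH with general, with batch as a term, by edgeR's quasi-likelihood test with Benjamini-Hochberg adjustment over 23552 genes, and a gene passed at an adjusted p under 0.05.

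Per length, PODXL was the most abundant of the 9 surface genes in both populations and DPP4 the least. The general population had 144 ± 49.9 CPM per kilobase of exon (SD, n = 5) of PODXL, followed by 35.4 ± 8.28 of ALPL, 27.7 ± 5.99 of BST2, 20.5 ± 1.26 of THY1 and 19.5 ± 1.18 of PROM1. ALCAM had 11.7 ± 0.498 CPM per kilobase, CD47 2.88 ± 0.217, F3 1.73 ± 0.148 and DPP4 0.409 ± 0.179. The libraries of ALPL and BST2, of BST2 and THY1, and of THY1 and PROM1 overlapped, and the other neighbours in this order did not. In HHH the order was the same except that THY1, at 31.4 ± 3.56 CPM per kilobase, stood second. There the neighbouring genes from THY1 through ALPL and BST2 to PROM1 overlapped, and the rest did not. Lengths are of the union of exons in GENCODE 44, and the authors' length-scaled values gave the same order in each population.

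**Figure D1:**
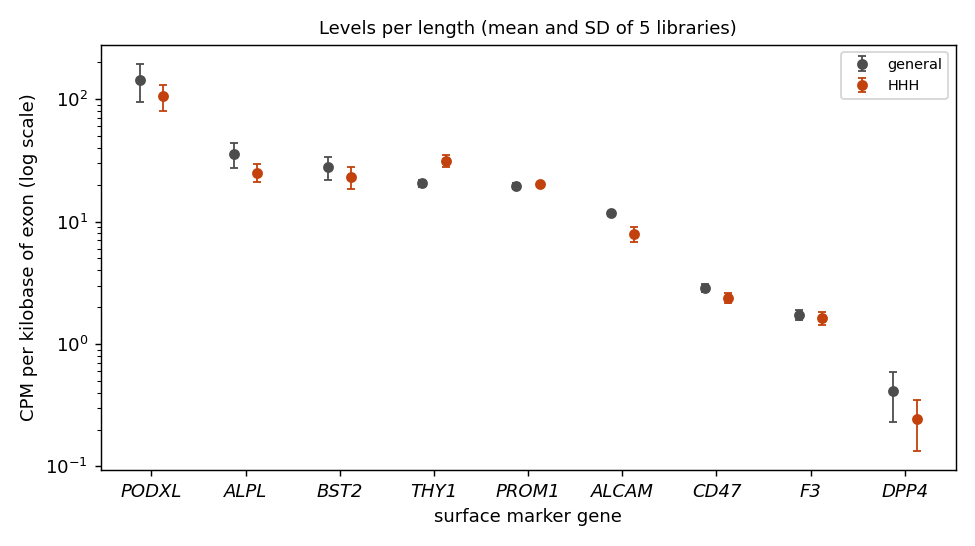
Level of each surface gene in CPM per kilobase of exon (log axis), as the mean and SD of the 5 libraries of the general (grey) and HHH (orange) populations. PODXL lies above all other genes at 144 and 105.5 CPM per kilobase, DPP4 lies lowest at 0.409 and 0.242, and THY1 is higher in HHH than in general.

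Between the populations, 5 of the 9 genes passed. PODXL, ALPL, DPP4 and ALCAM fell in HHH and THY1 rose. For reading these counts, 5.83% of all tested genes passed in either direction, 3.89% as lower and 1.94% as higher in HHH. THY1 and DPP4 also differed by more than 1.5-fold, which 2.98% of all genes did. The median log2 fold change of the 9 genes was -0.27, beside 0.016 for all tested genes. Within each of the batches, ALPL, DPP4 and ALCAM were lower in HHH with no overlap between the libraries of the populations, which held for 5.42% of all genes. THY1 was higher in the same way, which held for 3.93%.

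**Figure D2:**
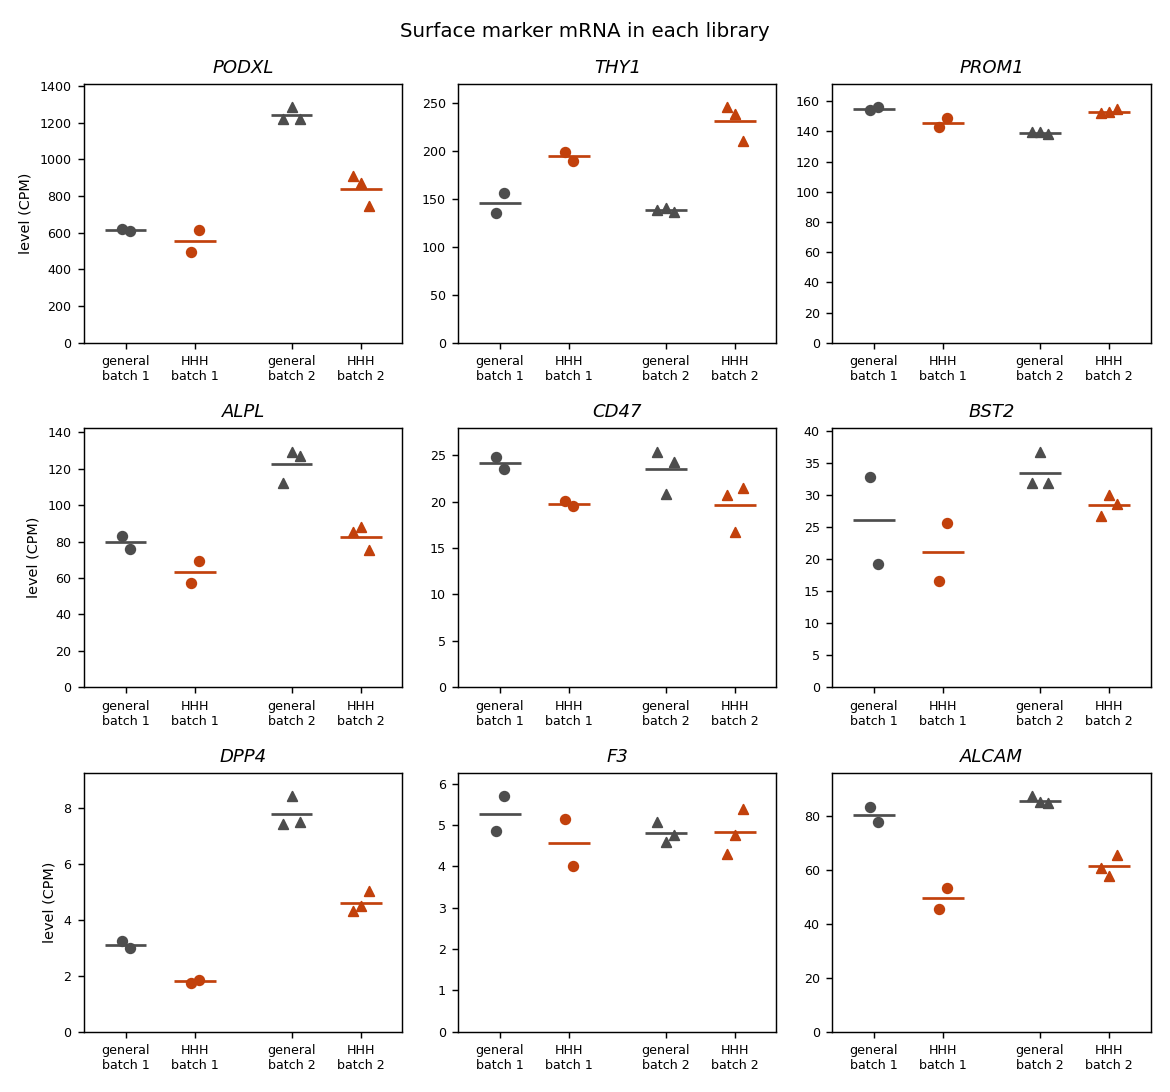
Level of each surface gene in every library (CPM, axes from 0), with general in grey and HHH in orange, circles for batch 1, triangles for batch 2 and a bar at the mean of each group. The orange points lie below the grey ones within each batch for ALPL, DPP4 and ALCAM and above them for THY1, while PODXL overlaps in batch 1 and separates in batch 2.

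PODXL (ENSG00000128567, chr7:131500262-131558217, minus strand) was the mucin of the set. Coordinates here and below are those of GRCh38 in GENCODE 44, looked up by identifier, since the files were made on GRCh37. In batch 1 its general libraries had 619 and 611 CPM and its HHH libraries 497 and 616 CPM. In batch 2 the general libraries had 1220, 1284 and 1219 CPM and the HHH libraries 907, 871 and 744 CPM. The populations thus overlapped in batch 1, where 1 HHH library was as high as general, and were apart in batch 2, where HHH was lower. The log2 fold change was -0.39 (SE 0.099), with an adjusted p of 0.0306. Within batches it was -0.15 (SE 0.14) in batch 1 and -0.57 (SE 0.10) in batch 2, and the test of that difference had an adjusted p of 0.204.

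This result for PODXL was close to the threshold. Leaving out HHH replicate 2 of batch 1 moved the adjusted p to 0.0723. Each library of batch 2 left out in turn also ended the call, with adjusted p values of 0.0765, 0.0930 and 0.0520 without HHH replicates 1, 2 and 3 and of 0.0810, 0.0786 and 0.0691 without general replicates 1, 2 and 3. With library size as the only scaling it was 0.0540, and in batch 1 alone 0.704.

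The near relatives and anchors of podocalyxin were looked at beside it. CD34, the sialomucin of blood stem and endothelial cells, had at most 13 counts in a library and was not tested. Of the 6 tested genes (PODXL2, EZR, NHERF1, NHERF2, RDX and MSN) 0 passed by edgeR, DESeq2 or limma with voom, and 2 had an unadjusted p under 0.05 in edgeR. MSN, which encodes moesin, a linker between such membrane proteins and actin and the gene of the list with the highest CPM not scaled for length, had 243 ± 7.23 CPM (SD, n = 5) in the general libraries and 268 ± 20.5 CPM in HHH, with an adjusted p of 0.286. The median log2 fold change of the list was -0.025.

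Enzymes that build the sugars of this kind of carrier moved in both directions. Of 12 genes of keratan sulphate and O-glycan synthesis, all tested, 2 fell and 2 rose, and their median log2 fold change was -0.0019. GCNT1, the enzyme that branches core 1 O-glycans into core 2, fell from 40.5 ± 4.44 CPM (SD, n = 5) in general to 17.8 ± 2.43 CPM in HHH, by 1.18 on the log2 scale (SE 0.090), with no overlap of the populations in either batch. B4GALT4, a galactosyltransferase of keratan sulphate chains, fell by 0.39 (SE 0.072), with an adjusted p of 0.00417. CHST2, which sulphates N-acetylglucosamine, rose by 0.32 (SE 0.082, adjusted p = 0.0331). ST3GAL1, which caps core 1 O-glycans with sialic acid, rose from 5.39 ± 0.432 to 7.32 ± 1.03 CPM, by 0.44 on the log2 scale (SE 0.11, adjusted p = 0.0354).

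Genes listed for the globo-series and Lewis antigens, to which the SSEA-3 and SSEA-4 glycolipids belong, gave no call by edgeR. Of the 9 tested, 1 had an unadjusted p under 0.05, DESeq2 called 1 and limma with voom called 0. ST6GAL1, a sialyltransferase and the gene of the list with the highest CPM when length is left aside, had 126 ± 10.3 CPM in the general libraries and 118 ± 20.4 CPM in HHH (SD, n = 5 each), with an adjusted p of 0.542. What each listed enzyme, ST6GAL1 included, adds to SSEA-3 or SSEA-4 was not tested.

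**Figure D3:**
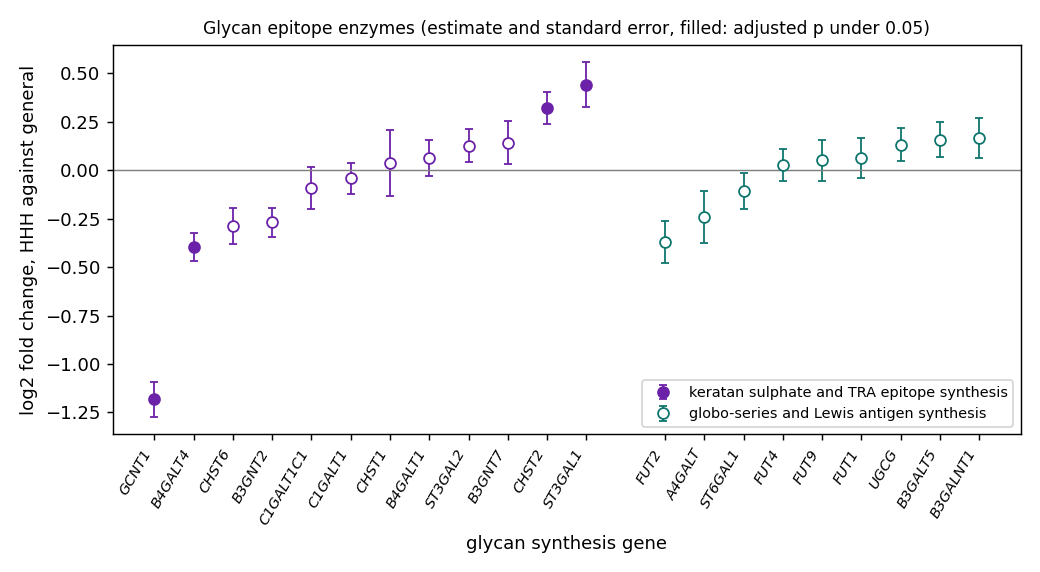
Log2 fold change of HHH against general, with its standard error, for 12 genes listed for keratan sulphate and TRA epitope synthesis (purple) and 9 listed for globo-series and Lewis antigen synthesis (green), filled where the adjusted p was under 0.05. GCNT1 lies at -1.18, B4GALT4 at -0.39, CHST2 at 0.32 and ST3GAL1 at 0.44, and none of the green points is filled.

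THY1 (ENSG00000154096, chr11:119415476-119424985, minus strand) was the one surface gene of the set that rose. Its general libraries had 135 and 157 CPM in batch 1 and 138, 140 and 137 CPM in batch 2. The HHH libraries had 199 and 189 CPM in batch 1 and 245, 239 and 210 CPM in batch 2. Every HHH library was above every general library, whichever the batch. The log2 fold change was 0.61 (SE 0.083), a 1.53-fold rise, with an adjusted p of 0.00045. It was 0.41 (SE 0.12) within batch 1 and 0.74 (SE 0.087) within batch 2, a difference that did not pass (adjusted p = 0.228).

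Part of the THY1 reads could belong to its neighbours. THY1-AS1 and USP2-AS1, on the other strand, overlap 12.5% of the exonic bases of THY1, and whether the authors' counting used strand is not given in the sources used here. THY1 passed in each fit that left out a library. It did not pass on the deposited log2 values, where the log2 fold change was 0.47 with an adjusted p of 0.105, or in batch 1 alone, where the adjusted p was 0.216.

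THY1 is also a marker of mesenchymal cells, so the other markers of those cells were read beside it. Of 10 such genes 7 were tested and 1 passed, COL1A1, a chain of fibrillar collagen, which fell from 24.2 ± 3.84 to 12.8 ± 3.66 CPM (SD, n = 5 each). Its log2 fold change was -0.34 in batch 1 (adjusted p = 0.428) and -1.34 in batch 2 (adjusted p = 7.0e-06), and the interaction passed (adjusted p = 0.0315). ENG, CD44, PDGFRA and PDGFRB were at 0.064, 0.053, 0.12 and 0.086 on the log2 scale, and NT5E and S100A4 at -0.062 and -0.054. The median log2 fold change of the list was 0.053. Its summed level, COL1A1 included, was 47.7 to 52.5 CPM in the general libraries and 31.1 to 48.4 CPM in the HHH libraries. DCN had at most 3 counts in any library, and COL3A1 and LUM did not pass the filter on low counts.

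ALPL (ENSG00000162551, chr1:21509397-21578410, plus strand) encodes the alkaline phosphatase stained for in stem cell colonies. In batch 1 it had 83.3 and 76.1 CPM in the general libraries and 57.0 and 69.1 CPM in the HHH libraries. In batch 2 the general libraries had 112, 129 and 127 CPM and the HHH libraries 85.0, 88.1 and 75.1 CPM. HHH was lower within each batch, while the HHH libraries of batch 2 overlapped the general libraries of batch 1. The log2 fold change was -0.48 (SE 0.084), 1.39-fold lower, with an adjusted p of 0.00332. Its sizes of -0.34 in batch 1 and -0.58 in batch 2 were not shown to differ (adjusted p = 0.433).

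The paralogues of ALPL are close copies of each other and were far rarer. ALPG, a germ cell alkaline phosphatase, had 2.46 ± 1.24 CPM (SD, n = 5) in the general libraries and 0.590 ± 0.226 CPM in HHH, a log2 fold change of -2.01 (SE 0.19) with an adjusted p of 1.3e-05. ALPP, the placental enzyme, had at most 29 counts in a library and missed the filter with all libraries, and in batch 2 alone, where it was tested, it was lower in HHH (log2 -1.94, SE 0.33, adjusted p = 0.00244). ALPI, the intestinal enzyme, had at most 1 count. Reads of ALPG and ALPP may be split between these near-identical genes.

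DPP4 (ENSG00000197635, chr2:161992245-162074394, minus strand) encodes a cell surface peptidase that removes dipeptides from the amino end of peptides. The general libraries had 3.23 and 2.99 CPM in batch 1 and 7.41, 8.43 and 7.49 CPM in batch 2. In HHH it had 1.76 and 1.85 CPM in batch 1 and 4.31, 4.51 and 5.02 CPM in batch 2. Within each batch all HHH libraries were below all general ones, and HHH of batch 2 was above general of batch 1. Its log2 fold change of -0.76 (SE 0.097), 1.70-fold lower, was the largest of the 9 genes in size, with an adjusted p of 0.00026, and it was -0.79 in batch 1 and -0.76 in batch 2.

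ALCAM (ENSG00000170017, chr3:105366909-105576900, plus strand) encodes a cell adhesion molecule of the immunoglobulin family that binds itself and CD6. Its levels in general were 83.4 and 78.0 CPM in batch 1 and 87.5, 85.3 and 85.0 CPM in batch 2. In HHH they were 45.6 and 53.5 CPM in batch 1 and 60.7, 58.0 and 65.7 CPM in batch 2. Every HHH library was lower than every general library across the batches. The log2 fold change was -0.57 (SE 0.074), 1.49-fold lower, with an adjusted p of 0.00029. ALCAM was the only 1 of the 9 genes to pass in batch 1 alone, with an adjusted p of 0.0478, where 0.573% of 23720 genes passed.

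Relatives of prominin, of DPP4 and of ALCAM were read together. Of 8 tested genes 2 passed, both lower in HHH. DPP10, a relative of DPP4 without enzyme activity that binds potassium channels, fell from 15.5 ± 2.63 to 8.50 ± 1.30 CPM (SD, n = 5 each), with an adjusted p of 7.4e-05. BCAM, a laminin-binding adhesion molecule, fell from 39.1 ± 2.72 to 27.8 ± 4.16 CPM, with an adjusted p of 0.00228. The median log2 fold change of the list was -0.095.

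**Figure D4:**
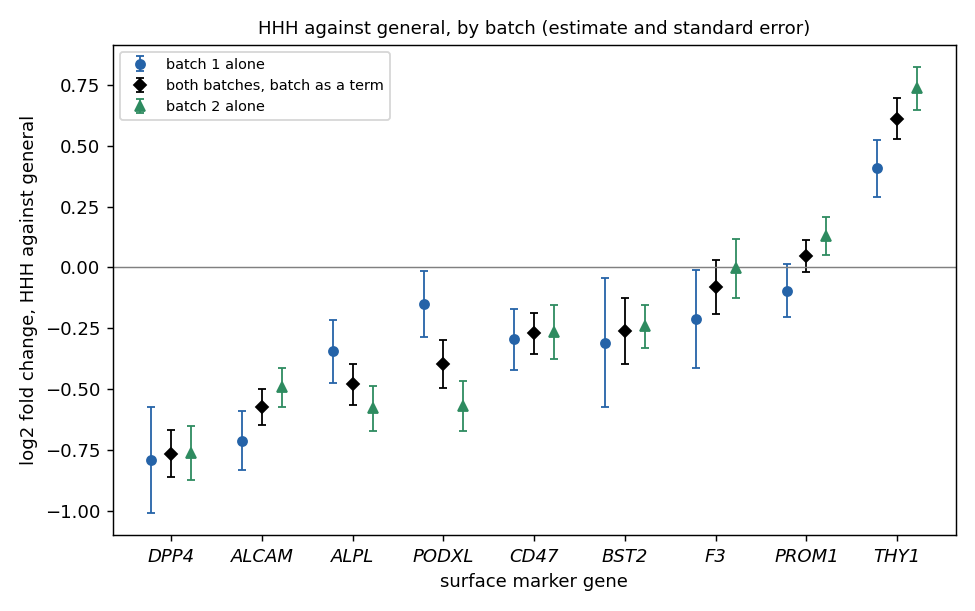
Log2 fold change of HHH against general for each surface gene with its standard error, in batch 1 alone (circles), in both batches with batch as a term (diamonds) and in batch 2 alone (triangles). DPP4, ALCAM and ALPL lie below 0 and THY1 above 0 in each, PODXL is nearer to 0 in batch 1 (-0.15) than in batch 2 (-0.57), and PROM1 changes sign.

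The stretches just before the starts of these genes were read because ALPL, DPP4 and ALCAM were lower together. RefSeq promoter windows on GRCh38.p14 were at hand for 8 of the 10 genes, in 15 windows. The 250 bases before a RefSeq transcript start are shown for these 3 genes and for BST2, the interferon-induced member. RefSeq starts can lie inside the outermost GENCODE bounds printed above, and the windows of ALPL and DPP4 reach into those. ALPL has 3 windows, of which the one nearest its GENCODE start is shown. ALPL is at chr1:21509173-21509422 (plus strand), DPP4 at chr2:162074216-162074465 (minus), ALCAM at chr3:105366659-105366908 (plus) and BST2 at chr19:17405631-17405880 (minus). Each is written 5′ to 3′ on the strand of its gene, with matches to any of 6 motifs in capitals.
ALPL: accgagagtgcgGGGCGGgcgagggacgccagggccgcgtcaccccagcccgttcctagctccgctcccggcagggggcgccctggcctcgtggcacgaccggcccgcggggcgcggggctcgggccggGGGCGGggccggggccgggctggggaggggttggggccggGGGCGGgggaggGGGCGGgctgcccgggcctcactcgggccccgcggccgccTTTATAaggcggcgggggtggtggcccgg
DPP4: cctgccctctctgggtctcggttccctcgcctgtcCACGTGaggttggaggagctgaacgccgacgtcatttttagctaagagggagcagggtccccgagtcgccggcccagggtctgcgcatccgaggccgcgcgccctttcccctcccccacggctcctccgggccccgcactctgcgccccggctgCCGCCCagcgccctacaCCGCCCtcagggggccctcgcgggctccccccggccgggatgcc
ALCAM: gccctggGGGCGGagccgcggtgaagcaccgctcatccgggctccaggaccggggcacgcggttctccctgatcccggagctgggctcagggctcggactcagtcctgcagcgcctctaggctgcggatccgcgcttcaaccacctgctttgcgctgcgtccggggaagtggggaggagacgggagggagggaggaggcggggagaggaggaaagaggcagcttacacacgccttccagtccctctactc
BST2: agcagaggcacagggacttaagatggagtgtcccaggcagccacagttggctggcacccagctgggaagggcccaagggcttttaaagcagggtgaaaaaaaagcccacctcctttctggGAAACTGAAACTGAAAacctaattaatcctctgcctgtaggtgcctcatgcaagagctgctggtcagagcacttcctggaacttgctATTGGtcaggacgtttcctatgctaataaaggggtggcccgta

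The motifs were searched on both strands. The letters were GGGCGG for the GC box, TATAAA for the TATA box, CACGTG for an E-box, TGANTCA for an AP-1 site, CCAAT for the box of that name, and a pair of GAAA blocks with 2 free bases between them for the interferon element. The shown window of ALPL holds 4 GC boxes and 1 TATA box, that of DPP4 2 GC boxes and 1 E-box, and that of ALCAM 1 GC box. Of all 35116 RefSeq windows, 42.6% hold a GC box, 10.7% a TATA box and 6.34% the E-box, so the element that the 3 shown windows share is a common one. The other 2 windows of ALPL hold 0 GC boxes, and 1 of them holds 2 E-boxes. The BST2 window holds 2 matches to the interferon element, which overlap each other, and 1 CCAAT, found in 3.02% and 32.0% of all windows. A match is a string of letters and does not show that a factor was bound.

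BST2 (ENSG00000130303, chr19:17402939-17405630, minus strand), tetherin, holds budding virus particles at the membrane and is induced by interferon. It ranged from 19.3 to 36.7 CPM in the general libraries and from 16.6 to 30.0 CPM in HHH, overlapping in batch 1 and lower in all HHH libraries of batch 2. Its log2 fold change was -0.26 (SE 0.14) with an adjusted p of 0.291, and it moved to -0.12 without general replicate 1 of batch 1 and to -0.17 without HHH replicate 2 of batch 1. Of 18 tested interferon-response genes 1 rose and 1 fell, and DESeq2 called 1. SAMHD1, an enzyme that breaks down deoxynucleotides, fell from 78.6 ± 11.8 to 51.0 ± 5.76 CPM (SD, n = 5 each, adjusted p = 0.00026). IFIT3 rose from 0.276 ± 0.0513 to 0.480 ± 0.0935 CPM (adjusted p = 0.0370) on at most 35 counts in a library. The median log2 fold change of the list was -0.16.

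CD47 (ENSG00000196776, chr3:108043091-108091862, minus strand), the signal that restrains phagocytosis through SIRPA, ranged from 20.8 to 25.4 CPM in the general libraries and from 16.8 to 21.5 CPM in HHH. Its log2 fold change was -0.27 (SE 0.085) with an adjusted p of 0.0809. It was of like size in both batches, at -0.30 and -0.26. All HHH libraries lay below the general ones in batch 1. The populations overlapped in batch 2, where HHH reached 21.5 CPM and general went down to 20.8 CPM. The call depended on the method, since DESeq2 gave an adjusted p of 0.0442 and removal of a trend with GC content 0.0239. Among 5 tested partners and other phagocytosis signals, THBS1, a secreted ligand of CD47, passed and fell from 90.4 ± 11.6 to 65.3 ± 11.7 CPM (SD, n = 5 each), with an adjusted p of 0.0301.

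PROM1 (ENSG00000007062, chr4:15963076-16084378, minus strand), the cholesterol-binding protein of membrane protrusions, ranged from 138 to 156 CPM in the general libraries and from 143 to 155 CPM in HHH. Its log2 fold change was 0.047 (SE 0.066) with an adjusted p of 0.735. The HHH libraries were below the general ones in batch 1 and above them in batch 2, by -0.09 and 0.13 on the log2 scale, and the test of that difference gave an adjusted p of 0.306. FGFBP2 overlaps 2.23% of its exonic bases.

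F3 (ENSG00000117525, chr1:94529173-94541759, minus strand), the cell surface receptor that starts coagulation, ranged from 4.60 to 5.70 CPM in the general libraries and from 4.01 to 5.39 CPM in HHH, with overlap in both batches. Its log2 fold change was -0.079 (SE 0.11) with an adjusted p of 0.731. Of 8 tested partners, 1 rose and 2 fell. TFPI2, an inhibitor of serine proteases, rose by 0.58 on the log2 scale (SE 0.13, adjusted p = 0.0147). PROCR, the endothelial receptor of protein C, fell by 0.56 (SE 0.10, adjusted p = 0.00453), and F10, the zymogen that F3 and factor VII activate, fell by 0.58 (SE 0.16, adjusted p = 0.0433) on at most 128 counts in a library.

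CD24 (ENSG00000272398, chr6:106969831-106975627, minus strand), a short mucin-like protein, could not be measured under its own identifier, which has no row in the count table. A row named CD24P4 in GENCODE 44 (ENSG00000185275) is a copy of CD24 on chromosome Y whose 243 bases are 99.2% identical to CD24. Reads of the gene and of its copy cannot be told apart by sequence here. Whether the reads in that row came from CD24 or from the copy was not tested. That row had 931 ± 41.1 CPM (SD, n = 5) in the general libraries and 817 ± 70.5 CPM in HHH, a log2 fold change of -0.19 (SE 0.080) with an adjusted p of 0.198. It was not counted among the 9 genes.

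GPI anchors are built and attached in the endoplasmic reticulum by proteins that include the PIG proteins, and are remodelled after attachment by the PGAP proteins. Of 18 tested genes of this machinery 0 passed by edgeR, DESeq2 or limma with voom, and 0 had an unadjusted p under 0.05. PGAP1, which remodels the lipid of the anchor, had the highest CPM of them before any scaling for length, with 64.8 ± 6.15 CPM (SD, n = 5) in the general libraries and 59.2 ± 3.83 CPM in HHH. The GPI-anchored THY1 and ALPL thus moved in opposite directions beside a list with a median log2 fold change of 0.036.

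Other surface markers were counted for comparison. Among 14 complement shields and other surface markers of stem cell cultures, 1 rose and 2 fell. SLC2A1, the glucose transporter GLUT1, rose from 274 ± 37.5 to 357 ± 22.9 CPM (SD, n = 5 each, adjusted p = 0.0198). CDH1, E-cadherin, fell from 313 ± 23.0 to 235 ± 20.8 CPM (adjusted p = 0.00759) and CD55, a GPI-anchored shield against complement, from 18.6 ± 2.42 to 15.0 ± 3.2 CPM (adjusted p = 0.0338). Of 5 tested surface markers of the naive state, CD70 passed and fell from 0.754 ± 0.228 to 0.333 ± 0.105 CPM (adjusted p = 0.00922). On the log2 scale CD7, IL6ST and ITGAE were at 0.15, 0.048 and 0.21 and SUSD2 at -0.23, and the median of that list was 0.048.

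Pluripotency genes showed both directions too. Of the 8 tested, NANOG rose from 32.6 ± 3.62 to 44.2 ± 3.75 CPM (SD, n = 5 each, adjusted p = 0.00572) and SOX2 fell by 0.26 on the log2 scale (SE 0.068, adjusted p = 0.0375). Markers of other lineages were read as well. Of the trophoblast list 1 of 2 tested genes passed, KRT7, an epithelial keratin, which fell from 7.86 ± 2.30 to 4.54 ± 0.793 CPM, and CGA, CGB5 and HAND1 had at most 3 counts in a library. The summed trophoblast list was 5.84 to 10.9 CPM in the general libraries and 3.69 to 5.71 CPM in HHH. In the neural list 1 of 6 tested genes passed by edgeR and 0 by limma with voom, SOX1, which fell from 0.389 ± 0.161 to 0.149 ± 0.0624 CPM, and the sums were 199 to 281 CPM in the general libraries and 147 to 261 CPM in HHH. Most of those sums was NES, an intermediate filament of progenitors, at 222 ± 27.5 CPM in general and 193 ± 45.9 CPM in HHH, with a log2 fold change of 0.22 in batch 1 (adjusted p = 0.521) and -0.53 in batch 2 (adjusted p = 0.0194). Over both batches NES did not pass, with a log2 fold change of -0.23 and an adjusted p of 0.384.

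For endothelial and blood cells 1 of 4 tested genes passed, TEK, an angiopoietin receptor, which fell by 0.31 on the log2 scale. KDR, CDH5 and RUNX1 were at 0.069, 0.20 and 0.29, and the median log2 fold change of the list was 0.13. The sums were 128 to 193 CPM in the general libraries and 142 to 165 CPM in HHH. Of 3 tested endoderm genes 0 passed by edgeR, DESeq2 or limma with voom, 1 had an unadjusted p under 0.05, and SOX17, GATA4 and GATA6 had at most 3 counts in a library. The sums of the endoderm list were 2.94 to 4.58 CPM in general and 3.62 to 6.05 CPM in HHH, and its median log2 fold change was 0.49. CER1, an inhibitor secreted by endoderm, was at 0.51 on the log2 scale with an adjusted p of 0.104, and at 0.70 in batch 2 alone, where it passed (adjusted p = 0.0172). AFP was at 0.49 with an adjusted p of 0.269, and CXCR4 went the other way, at -0.10 with an adjusted p of 0.752. FOXA2, with up to 78 counts in a library, missed the filter and had a mean of 0.506 CPM in general and 1.52 CPM in HHH of batch 1, where the adjusted p was 0.359. The part of these other lineages in the results for the 9 genes was not tested.

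The batches, which the labels give by number only, differed at these genes as well. PODXL, ALPL, BST2, DPP4 and ALCAM were higher in batch 2, 5 of the 9 genes, and 0 were lower. Among all tested genes 47.9% passed between batches, 24.0% as higher and 23.9% as lower in batch 2. DPP4 was 2.52-fold higher (log2 1.34, SE 0.10, adjusted p = 3.3e-07), PODXL 1.74-fold (log2 0.80, SE 0.10, adjusted p = 3.3e-05) and ALPL 1.42-fold (log2 0.51, SE 0.087, adjusted p = 0.00031). The steps were smaller for BST2 (log2 0.40, SE 0.14, adjusted p = 0.0299) and ALCAM (log2 0.20, SE 0.076, adjusted p = 0.0417). THY1 differed little, by 0.088 on the log2 scale with an adjusted p of 0.413. With the batch term left out, PODXL, ALPL and DPP4 did not pass between the populations, with adjusted p values of 0.655, 0.327 and 0.597.

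Between batches, ALCAM lost its call without any of 6 libraries (general replicate 2, HHH replicate 2 or HHH replicate 3 of batch 1, and HHH replicate 1, HHH replicate 2 or general replicate 1 of batch 2), with adjusted p values up to 0.191. BST2 lost it without general replicate 2 or HHH replicate 2 of batch 1, or without general replicate 2 or HHH replicate 2 of batch 2, with values up to 0.121.

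Whether the difference between the populations itself differed between batches was tested as an interaction. Of the 9 genes 0 passed by edgeR, DESeq2 or limma with voom, beside 0.777% of all tested genes that passed by edgeR. In edgeR 2 of the 9 had an unadjusted p under 0.05, and the share of all genes at that looser threshold is not given here. PROM1 was the only gene of the set whose log2 fold change differed in sign between the batches. That of F3 in batch 2 was -0.0041 (SE 0.12), too near 0 for its sign to be read. How many of all tested genes kept their sign is not given here.

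The genes whose levels followed PODXL and THY1 most closely were found from log2 CPM after the batch means were subtracted, over 10 libraries and 10521 genes of at least 10 CPM. Libraries of the 2 populations enter these correlations together, so they hold the difference between populations as well as that among libraries. Among the genes most alike PODXL were SALL1 (Pearson r = 0.990), B4GALNT3 (0.983), DPYSL5 (0.983) and CELSR1 (0.981). Most alike THY1 were THY1-AS1 (r = 0.997), whose exons overlap its own, FGF13 (0.976), RBM47 (0.975), DUSP6 (0.973) and HLA-DPB2 (0.972), a pseudogene with close relatives. On the same scale, within the set, DPP4 and ALCAM had r = 0.964, PODXL and ALPL 0.950, and THY1 and DPP4 -0.952, while F3 and PROM1 had 0.154.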

How the data were processed

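RNA of 10 libraries of 1 embryonic stem cell line was measured by sequencing, with TruSeq RNA libraries from total RNA per the labels. The authors deposited whole fragment counts per Ensembl gene without normalization, and these counts were analysed. The authors also deposited a score table of log2 RPKM values after TMM scaling, from which batch means had been removed, and these served as an alternative and for the order of levels. The submitters' processing notes name CASAVA 1.8.2, R 3.2.2, limma 3.26.9 and the build GRCh37. The aligner, the counting tool and the annotation are not given in the sources used here. Of 55841 identifiers, 88.5% matched GENCODE 44 (GRCh38), the source of symbols, coordinates, lengths and GC content.

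The filter filterByExpr at a minimum count of 10 kept 23552 genes. TMM factors ran from 0.832 to 1.18, and the genes were tested in edgeR 4.0.16 (R 4.3.3) by the quasi-likelihood F test, two-sided, with batch and population as terms and Benjamini-Hochberg adjustment over all tested genes. Standard errors were taken as the log2 fold change over the root of its F value. CPM were computed on the scaled library size. Batches were also fitted alone, and the interaction was tested in the same way. The scripts were tested on simulated data. Groups, batches and replicate numbers came from the titles.

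The genes of the set and the 18 comparison lists were chosen with earlier results of these data known, so their counts are descriptions. Named beside the set were all passed genes of a list when at most 4 passed, otherwise the gene of a list with the highest mean CPM, the sort antigens, POU5F1 and NANOG, and the 5 genes most alike PODXL and THY1, of which 1 is not reported here. Genes named beyond this rule were chosen after their values were seen.

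Replicate numbers were shared by 4 pairs of libraries within batches. Deviations from the mean of population and batch correlated at 0.113 in batch 1 and at 0.240, 0.143 and 0.113 in batch 2, so the numbers were taken to pair the libraries, as a hint from the data that no label states. Batch 1 has only 1 such pair, and with 2 libraries a group its value does not support the numbering, since general replicate 1 and HHH replicate 3 also gave 0.113.

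The alternatives tried were scaling by library size only, by the upper quartile or by RLE, a filter of at least 1 CPM in 5 libraries or none, DESeq2 1.42.0, limma 3.58.1 with voom or on the deposited log2 values, no batch term, the replicate block, removal of a GC trend (spline with 5 degrees of freedom) with and without the block, each batch alone, a fold over 1.5, and each library left out in turn. PECAM1 had no matching identifier and is not analysed here.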

Additional observations from a re-analysis of the deposited data

Results flagged for a closer look

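Of 20 groups of 5 libraries examined, 10 genes in each population, 2 held a library set apart from the other 4. The measure was the gap over the range of 5 values, beyond Dixon's 95% critical value. Chance alone would flag about 1 in 20 groups of like libraries. Each group mixed both batches, between which 5 of the 9 genes passed, so that rate need not hold here. Both libraries set apart were general replicate 2 of batch 1. In that library THY1 stood at 156.5 CPM, above the other general libraries, which had 135 to 140 CPM, and still below all HHH libraries. BST2 stood at 19.28 CPM in it, below the 31.8 to 36.7 CPM of the other general libraries.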

How the results depend on the processing

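Between the populations, 5 of the 9 genes passed, and 4 to 5 did with a library left out, PODXL being the one lost. The number was 2 without the batch term, 1 in batch 1 alone and 2 when a fold over 1.5 was also asked for. THY1, ALPL, DPP4 and ALCAM passed in each of the 10 fits that left out a library. PROM1, which did not pass, turned to -0.092 on the deposited log2 values and to -0.095 in batch 1 alone. With the replicate block, which pairs libraries by number, 5 genes passed, and no call on any of the 9 genes changed. General replicate 1 and HHH replicate 3 of batch 1 have no partner, so they add nothing to the comparison of populations in that fit. PODXL was at a log2 fold change of -0.50 in it, with an adjusted p of 0.0133. With HHH replicate 3 of batch 1 left out of the main fit, PODXL was at -0.48. Over all genes, 458 were higher and 915 lower in HHH by TMM, 248 and 817 with library size only, and 50 and 1231 on the deposited values, whose median log2 fold change was -0.12. No gene of the set that passed changed direction under any of these.

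Between batches, 5 genes passed, 3 to 5 with a library left out, 9 with library size only and 2 with a fold over 1.5. Library size only moved the median of all genes to 0.34 on the log2 scale, with 11925 genes higher and 1667 lower in batch 2 against 5651 and 5634 by TMM. Near 0, signs turned: PROM1, CD47 and F3 were at 0.0051, 0.024 and 0.019 with upper quartile scaling and at 0.29, 0.31 and 0.31 with library size only. With a library left out F3 ran from -0.12 to 0.037 (0.0073 without HHH replicate 2 of batch 1), CD47 from -0.050 to 0.018 (0.013 without general replicate 2 of batch 2) and CD24P4 from -0.040 to 0.084. For calls that changed the cause was not tested, other than that fewer libraries or a higher fold were asked for. Among the named genes that passed, IFIT3, SOX1 and CD70 rest on few counts, at most 35, 33 and 74 in a library.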
